A study of Mus musculus with 4 samples.

Results

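The cells described here are germ cells of mouse spermatogonial cultures in which no UMI (unique molecular identifier, 1 per counted RNA molecule) of 14 cell cycle genes was found. They were chosen by a rule on counts. A barcode needed over 400 and under 4000 genes, under 10% mitochondrial UMIs and at least 1000 UMIs. Its germ sum, the UMIs of Dazl, Tex15, Stk31 and Epcam, had to be at least 2 and above its fibroblast sum, the UMIs of Col1a1, Col1a2, Sparc and Dcn. It could hold no UMI of Stra8 or Kit, which mark entry into differentiation, and no UMI of Ube2c, Cdc20, Ccnb1, Cenpa, Hmmr, Aurka, Mki67, Top2a, Hist1h2ap, Hist1h1b, Pclaf, Rrm2, Clspn or Lig1. The rule was met by 707 of 10045 germ cells, out of 21070 kept barcodes. The values of these 24 genes chose the cells and are no finding about them.

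The cultures came from testes of 3 male mice at postnatal day 6, from which cells were selected on magnetic beads for the surface protein Thy1, and they grew on feeder cells with GDNF and FGF. Vehicle cultures received PBS for 3 days, and EV cultures received 1 µg/ml of extracellular vesicles from whole testes of day 7 C57BL/6 mice for the same time. The vesicles were prepared from a mixture of all testis cell types, and the labels give no separate mice for each culture, so that the spread between libraries may be technical. Counts of vehicle 1, vehicle 2 and EV 1 were used, with 2.37e+07, 2.74e+07 and 1.08e+07 UMIs in all, and the expression of EV 2 was not analysed here.

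Spermatogonia are the mitotic germ cells of the testis. Their stem cells depend on GDNF, which acts through the receptor pair Gfra1 and Ret and raises transcription factors such as Etv5, Bcl6b and Lhx1. A dividing cell makes replication transcripts in S phase and mitosis transcripts in G2 and M phase, and the latter are nearly absent from a cell early in G1. D-type cyclins act in G1 downstream of growth factors, E-type cyclins at the start of S phase, and CDK inhibitors hold cells out of the cycle.

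Vehicle 1 held 341 such cells among 4705 germ cells (7.25%, 95% Wilson interval 6.54 to 8.02). Vehicle 2 held 323 among 5149 (6.27%, 5.64 to 6.97), and EV 1 held 43 among 191 (22.5%, 17.2 to 28.9). Germ cells were few in EV 1, as the kept barcodes numbered 8278, 8844 and 3948 in vehicle 1, vehicle 2 and EV 1. Of the kept barcodes, the chosen cells made up 4.12%, 3.65% and 1.09%, so that this share was lowest in EV 1. All intervals given here cover counting error only, and no test between the arms was made, since the EV arm has 1 library with counts. The cells were shallow, with median depths of 1467, 1578 and 1337 UMIs in vehicle 1, vehicle 2 and EV 1 against 2073, 2215 and 1456 in the other germ cells. A cell with few UMIs meets a rule of 0 UMIs more easily, and the share moved with depth. Among vehicle 1 germ cells of 1000 to 1499 UMIs it was 20.7%, and it was 0.393% among those of 3000 or more. Vehicle 2 went from 17.9% to 0.639% over the same range. In EV 1 the share was 26.4% (19.0 to 35.5) in the shallowest class, whose interval overlaps that of vehicle 1 (18.2 to 23.5). Between 1500 and 1999 UMIs it was 14.5% (7.56 to 26.2), which overlaps vehicle 1 (6.93 to 9.78) and vehicle 2 (8.25 to 11.4). It was 20.8% (9.24 to 40.5, 5 of 24 cells) between 2000 and 2999 UMIs, where vehicle 1 had 2.05% (1.47 to 2.87) and vehicle 2 had 2.46% (1.85 to 3.26). The intervals of both vehicle libraries were apart from that of EV 1 in that class and in the deepest one, where 2 of 6 EV 1 cells met the rule. With each cell thinned to 1000 UMIs before the rule was applied, the shares were 14.6%, 13.1% and 22.3%.

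**Figure D1:**
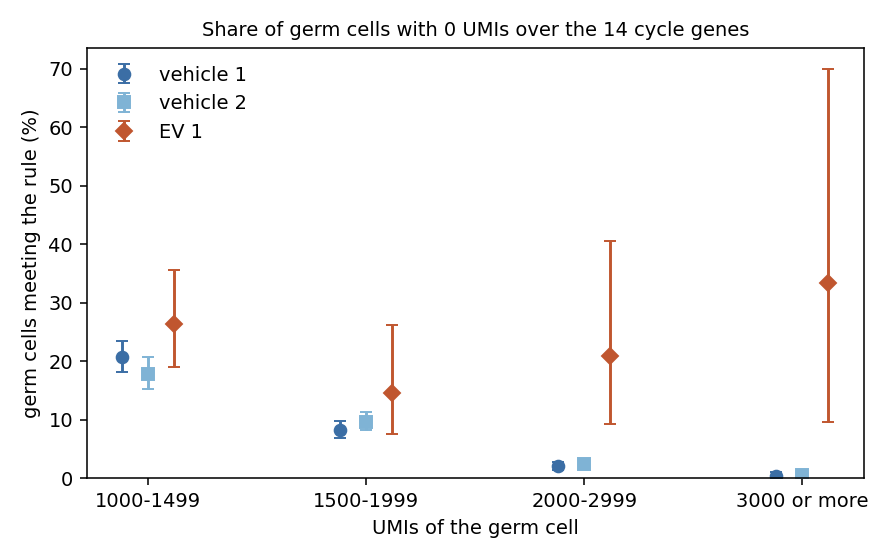
Share of germ cells that met the rule (y axis, percent) in 4 classes of UMIs per cell (x axis), with 95% Wilson intervals, for vehicle 1, vehicle 2 and EV 1. The vehicle shares fall from 20.7% and 17.9% in the shallowest class to 0.393% and 0.639% in the deepest, while the EV 1 points rest on 106, 55, 24 and 6 germ cells.

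The cells just outside the rule were more than those inside it in the vehicle libraries and fewer in EV 1. Among germ cells without Stra8 or Kit, 381 of vehicle 1, 415 of vehicle 2 and 26 of EV 1 held exactly 1 UMI over the 14 cycle genes, and 291, 317 and 24 held 2. A germ sum of 2, the lowest allowed, was found in 91, 94 and 19 of the chosen cells, and 66, 55 and 22 more cells would have been chosen had a sum of 1 been allowed.

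The label given to these cells, spermatogonia without cycle transcripts, did not hold for cycle genes that the rule did not use. At 1000 UMIs per cell, the 81 other replication and mitosis genes of the lists gave a median of 7, 7 and 5 UMIs in the chosen cells of vehicle 1, vehicle 2 and EV 1. The other germ cells had medians of 14, 14 and 13, and fibroblast-like cells of the same libraries, with a fibroblast sum of at least 2 and above the germ sum, had a median of 1 in each. Only 0.880%, 0.310% and 4.65% of the chosen cells had none of these transcripts. Single cycle genes outside the rule differed in how far they fell. In vehicle 1 at that depth, a Hells UMI was seen in 69.8% of the chosen cells and 73.4% of the other germ cells. Cdk1 was at 2.05% against 7.81%, Ccna2 at 3.81% against 10.7% and Pcna at 6.16% against 13.2%. The chosen cells are therefore called cells with 0 UMIs over 14 cycle genes, or zero-count germ cells, and no cell state is read from the name. Of the genes given to mark them, Dazl belongs to the rule, and Lhx1, Sugct and Spag16 are described below.

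The 2 phases were not lowered alike. The 38 replication genes summed to 3926, 3892 and 2598 CPM (counts scaled to a total of 1e6 in the class) in the zero-count germ cells, in the order vehicle 1, vehicle 2, EV 1, which is 71.7%, 69.6% and 48.8% of the level in the other germ cells. The 43 mitosis genes summed to 3228, 3310 and 2317 CPM, or 35.1%, 36.3% and 30.7%. Both sums stayed above the fibroblast-like cells, at 797, 874 and 439 CPM for replication and 1380, 1426 and 946 CPM for mitosis. Because these genes rise and fall with the 14 genes of the rule, the differences are a description and carry no test.

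**Figure D2:**
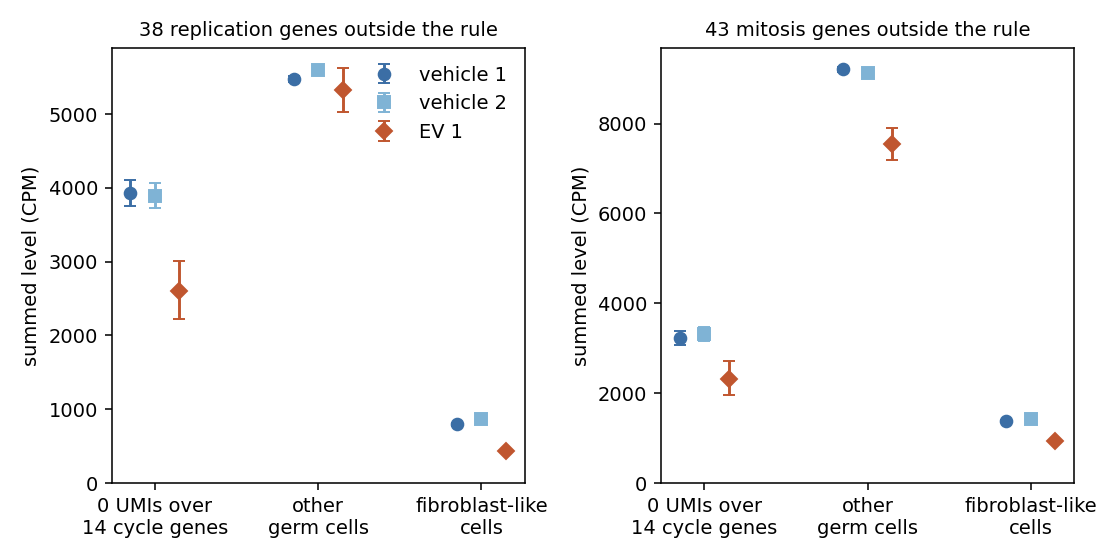
Summed level (y axis, CPM) of 38 replication genes and 43 mitosis genes that the rule did not use, in germ cells with 0 UMIs over 14 cycle genes, other germ cells and fibroblast-like cells (x axis), with exact 95% Poisson intervals. In each library the zero-count germ cells lie between the other germ cells and the fibroblast-like cells, nearer to the other germ cells for replication than for mitosis.

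The promoters of 3 mitosis genes are shown for the letters of a known cell cycle element. The cell cycle genes homology region, CHR, is TTTGAA and is known as a site bound by complexes that hold mitosis genes down in G0 and G1, and a CCAAT box often lies just upstream. RefSeq windows (build GRCm38.p6) from 250 bases before to 50 bases after a start were searched on both strands. CHR letters were in 58.5% of 41 windows of the mitosis genes (37 of 43 genes matched) against 17.9% of all 32851 windows, and CCAAT in 73.2% against 37.4%. The replication genes, with 30 windows of 27 genes matched out of 38, had CHR letters in 13.3% and CCAAT in 66.7%, so that CCAAT was common in both lists. The 3 mitosis genes with most UMIs among those with CHR letters in the last 100 bases before the start are printed, 5′ to 3′ on the strand of the gene, with CHR and CCAAT letters (or their reverse complement) in capitals.
Hmgb2, chr8:57511743-57511842, + strand: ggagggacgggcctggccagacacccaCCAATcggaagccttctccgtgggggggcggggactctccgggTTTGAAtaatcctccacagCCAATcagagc
Prc1, chr7:80294376-80294475, + strand: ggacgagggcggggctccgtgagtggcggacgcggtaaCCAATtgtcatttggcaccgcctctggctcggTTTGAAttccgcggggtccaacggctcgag
Kif11, chr19:37376282-37376381, + strand: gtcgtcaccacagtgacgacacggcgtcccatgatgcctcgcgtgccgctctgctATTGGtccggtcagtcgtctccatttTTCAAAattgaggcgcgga
The CHR letters begin 30 bases before the start in Hmgb2 and Prc1 and 19 bases before it in Kif11. Kif11, a spindle motor, had 38.3, 26.0 and 0 CPM in the zero-count germ cells and 216, 227 and 174 CPM in the other germ cells. Prc1, a protein of the spindle midzone, had 40.2, 46.4 and 44.3 CPM against 287, 286 and 245 CPM. Hmgb2, a chromatin protein, fell less steeply, with 480, 458 and 398 CPM against 1145, 1048 and 978 CPM. A match describes letters and does not show a bound site.

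For genes outside the rule, the UMIs of the zero-count and of the other germ cells were summed per library and compared over the 3 libraries with edgeR's quasi-likelihood test with library as a block. Of 11915 genes tested, 537 had a Benjamini-Hochberg adjusted p under 0.05 (4.51%). Of these, 196 were higher in the zero-count germ cells (1.64% of the genes tested) and 341 were lower (2.86%). Without vehicle 1 the number was 84 and without vehicle 2 it was 81, and the higher calls were nearly lost, with 7 and 5 left. Without EV 1, which had 43 of the cells, 652 genes were called, 290 of them higher. Without the filter on counts there were 545, of which 81 were higher. On cells thinned to 1000 UMIs the number was 296, and DESeq2 called 88, of which 9 were higher (0.0755% of the genes tested) and 79 lower (0.663%). At an unadjusted p under 0.05, 864 genes were higher (7.25%) and 910 lower (7.64%), and these shares are the background for the counts of that kind given for single lists. The lower genes included 40 of the 43 mitosis genes and 20 of the 38 replication genes, which move with the genes of the rule. Another measure moved with this comparison. Of the 196 higher genes, 105 (53.6%) were more abundant in fibroblast-like cells than in the other germ cells in all 3 libraries, against 26.2% of all genes tested and 8 of the 341 lower genes.

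That pattern was also seen in fibroblast markers. The 24 genes of the fibroblast list summed to 2726, 2158 and 6376 CPM in the zero-count class of the 3 libraries, in the order vehicle 1, vehicle 2 and EV 1, against 1836, 1571 and 2853 CPM among other germ cells. Fibroblast-like cells had 17025, 16313 and 19856 CPM. Vim, an intermediate filament protein, was higher in 3 of 3 libraries (log2 difference 0.86 ± 0.11 SE, edgeR adjusted p = 5.4e-13), as were S100a6, Cald1, Lgals1 and Bgn apart from Cald1 in EV 1. In all, 5 of 19 tested genes of the list rose and 0 fell (8 and 0 at an unadjusted p under 0.05, 2 and 0 by DESeq2), and their median difference was 0.37 log2 units against 0.02 over all genes. Cells with over 0.8% of their UMIs in the list made up 9 of 341, 11 of 323 and 1 of 43 zero-count germ cells. With such cells left out of both classes, an alternative chosen after the data were seen, the sums were 2178, 1732 and 3683 CPM against 1724, 1391 and 2760 CPM, and 468 genes were called. The part of fibroblast RNA in the other differences was not tested. Of the tested lists of other testis cells, 3 Sertoli, 1 Leydig, 2 peritubular myoid, 1 macrophage and 2 endothelial genes passed the filter on counts, and 0 passed the edgeR test, an unadjusted p under 0.05 or DESeq2.

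Most stem cell genes did not pass the test. Of 21 tested genes of the stem cell list, 1 rose and 0 fell by edgeR, with a median difference of 0.25 log2 units. At an unadjusted p under 0.05 there were 5 higher and 1 lower, and DESeq2 called 0. The gene that rose was Lhx1, a homeobox factor raised by GDNF, located at chr11:84518284-84525535. It was given beforehand as a marker of these cells, so that its test is no independent evidence about them. It had 72.7 CPM in zero-count germ cells of vehicle 1, 92.7 CPM in those of vehicle 2 and 29.5 CPM (2 UMIs) in those of EV 1. The other germ cells had 40.5, 46.7 and 29.0 CPM, so that both vehicle libraries were apart and EV 1 was not. The log2 difference was 0.95 ± 0.19 (SE, n = 3 libraries, edgeR adjusted p = 6.0e-05). In fibroblast-like cells Lhx1 had 1.26, 2.10 and 0 CPM. At 1000 UMIs per cell, a Lhx1 UMI was seen in 5.87% (3.83 to 8.89) of 341 zero-count germ cells of vehicle 1 and 3.69% (3.17 to 4.29) of the other germ cells, against 0.169% of fibroblast-like cells. Vehicle 2 had 7.43% (5.04 to 10.8) against 4.31% (3.77 to 4.92), and EV 1 had 2.33% (0.412 to 12.1) against 2.70% (1.06 to 6.74). Only in vehicle 2 were the intervals of the 2 classes apart.

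The GDNF receptor genes did not pass the test. Gfra1 had 232, 237 and 59.0 CPM in zero-count germ cells against 202, 215 and 99.5 CPM (0.20 ± 0.12, adjusted p = 0.43), and Ret, its signalling partner, differed by 0.25 ± 0.15 (adjusted p = 0.47). Zbtb16, a repressor that maintains undifferentiated spermatogonia, differed by -0.03 ± 0.13 (adjusted p = 0.95). Glis3, a zinc finger factor and the most abundant gene of the list, had 1774, 1934 and 841 CPM against 1374, 1492 and 1016 CPM, so that both vehicle libraries were higher and EV 1 was lower. Its edgeR adjusted p was 0.10 over the 3 libraries and 4.49e-07 without EV 1. Among 16 tested genes of the list of responses to GDNF and FGF, which shares Lhx1 with the stem cell list, 3 rose and 0 fell by edgeR (5 and 0 at an unadjusted p under 0.05, 0 by DESeq2), with a median of 0.40 log2 units. Dusp6, a phosphatase made in response to ERK signalling, had 45.9, 46.4 and 29.5 CPM against 24.5, 26.2 and 0 CPM (0.96 ± 0.26, adjusted p = 0.0076). Egr1, an early response factor, had 189, 178 and 59.0 CPM against 107, 116 and 62.2 CPM (0.75 ± 0.13, adjusted p = 1.1e-06).

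Immediate early genes respond to growth factors before new protein is made. The list summed to 1946, 1936 and 2229 CPM in zero-count germ cells against 1274, 1290 and 1663 CPM in the other germ cells, and fibroblast-like cells had more than either, with 2816, 2875 and 3583 CPM. Of 23 tested genes, 5 rose (Ier3, Junb, Egr1, Ier2 and Jun) and 0 fell by edgeR. At an unadjusted p under 0.05 there were 7 higher and 1 lower, and DESeq2 called 1, Ier3. The steadiest was Ier3, a survival factor gene, at 834, 812 and 989 CPM against 412, 407 and 651 CPM, with every zero-count sum above every sum of the other germ cells. Its log2 difference was 0.99 ± 0.10 (SE, n = 3, edgeR adjusted p = 1.2e-20), and it passed under all 15 alternative settings apart from the minimum of 2000 UMIs. Fibroblast-like cells had 640, 643 and 1841 CPM of Ier3, which is below the zero-count level in both vehicle libraries and above it in EV 1. Ier2 had 132 and 119 CPM in the vehicle libraries against 72.1 and 77.7 CPM, with 46.4 and 48.4 CPM in fibroblast-like cells, and was the reverse in EV 1, with 1 UMI in zero-count germ cells. Junb, a subunit of AP-1, rose by 1.01 ± 0.17 (adjusted p = 2.4e-07), with 88.0, 133 and 73.8 CPM against 53.2, 52.4 and 116 CPM, but the difference was 0.47 without vehicle 2, which ended the call. That of Ier2 went from 0.70 to 0.34 without vehicle 1, where it was not called either.

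Of the 14 tested genes of the G1 list, 2 rose and 2 fell by edgeR, with a median of -0.27. At an unadjusted p under 0.05 there were 4 higher and 4 lower, and DESeq2 called 0. Ccnd2, the cyclin D2 gene, had 786, 884 and 458 CPM in zero-count germ cells against 526, 551 and 485 CPM (0.61 ± 0.10, edgeR adjusted p = 3.5e-07), higher in both vehicle libraries and not in EV 1. Without vehicle 2 it was 0.38 and not called. Ccnd1, the cyclin D1 gene, had 256, 276 and 207 CPM against 181, 194 and 191 CPM (0.53 ± 0.11, adjusted p = 0.00016), but fibroblast-like cells had 956, 980 and 779 CPM, and it missed the threshold with fibroblast-rich cells left out. Ccnd3, the cyclin D3 gene, had 130, 121 and 118 CPM against 138, 139 and 133 CPM and did not pass (adjusted p = 0.82). The genes past the threshold as lower were those of the E cyclins, which are made with the S phase genes that the rule set to 0, so that their values are a description. Ccne1 (cyclin E1) had 11.5, 7.42 and 14.8 CPM against 32.9, 33.4 and 41.5 CPM, and Ccne2 (cyclin E2) had 23.0, 29.7 and 44.3 CPM against 46.8, 49.1 and 78.8 CPM.

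No CDK inhibitor gene passed the edgeR test as higher. Of 25 tested genes of CDK inhibitors and cycle exit, 0 rose and 3 fell (0 and 6 at an unadjusted p under 0.05, 0 and 1 by DESeq2), with a median of -0.20 log2 units. Cdkn1c, the imprinted gene of the inhibitor p57 at chr7:143458339-143461050, had 84.2 (vehicle 1), 121 (vehicle 2) and 162 CPM (EV 1) in zero-count germ cells, and 234, 242 and 253 CPM in the other germ cells. The groups did not overlap, and the log2 difference was -1.13 ± 0.14 (SE, n = 3, edgeR adjusted p = 4.1e-13). Fibroblast-like cells had 7.08, 6.63 and 0.853 CPM of it. The call was made under each of the 15 alternative settings. The other genes that fell were Cdkn3, a phosphatase of CDKs that is itself a mitosis gene, at 1.91, 0 and 0 CPM against 15.6, 13.1 and 16.6 CPM, and Rbl1, a member of the retinoblastoma family. Cdkn1a, the p21 gene, had 63.1, 57.5 and 310 CPM against 72.1, 73.7 and 170 CPM (-0.06 ± 0.18, adjusted p = 0.93), and Cdkn1b, the p27 gene, had under 10 CPM in both classes of the vehicle libraries (adjusted p = 0.85). Of 15 tested targets of p53, 0 passed the edgeR test, an unadjusted p under 0.05 or DESeq2, with a median of -0.02.

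The rule set Stra8 and Kit to 0. Of the other germ cells, 1536 of 4364, 1743 of 4826 and 33 of 148 held either in vehicle 1, vehicle 2 and EV 1. Genes made together with Stra8 and Kit can thus be lower through the rule itself. Several genes of progenitors and of differentiation were lower. Of 20 tested genes of this list, 4 fell and 2 rose (Ccnd2 and Ddit4) by edgeR, with a median of -0.15 (5 and 2 at an unadjusted p under 0.05, 2 and 0 by DESeq2). Tex11, an X-linked meiotic gene, had 99.5, 132 and 88.6 CPM in zero-count germ cells against 213, 227 and 133 CPM, with all 3 zero-count sums below all 3 others (-0.87 ± 0.14, edgeR adjusted p = 7.0e-08). Crabp1, which binds retinoic acid in the cytoplasm, had 93.7, 102 and 59.0 CPM against 190, 189 and 141 CPM, again without overlap (-0.92 ± 0.15, adjusted p = 7.3e-08). Meioc, needed for the meiotic program, fell to 32.5, 38.9 and 29.5 CPM from 68.5, 70.3 and 62.2 CPM (adjusted p = 0.0032). Without vehicle 1 the calls of Tex11 (adjusted p = 0.25), Crabp1 (adjusted p = 0.061) and Meioc (adjusted p = 0.58) were lost, that of Meioc also without vehicle 2. Dmrt1, a regulator of the choice between mitosis and meiosis, fell by 0.38 ± 0.12 log2 units (adjusted p = 0.028), and it missed the threshold against only those other germ cells that also lacked Stra8 and Kit (3 of these 4 genes kept it). Sycp3, a protein of the meiotic chromosome axis, did not pass (-0.01 ± 0.12, adjusted p = 0.98).

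Most genes of germ cell identity did not pass the test. Of 16 tested, 1 rose and 1 fell by edgeR (2 and 3 at an unadjusted p under 0.05, 0 by DESeq2), with a median of -0.06, and Ddx4, the germ cell RNA helicase, had 115, 119 and 148 CPM against 132, 128 and 174 CPM (adjusted p = 0.78). Dppa4, a gene of pluripotent and germ cells, had 93.7, 55.6 and 44.3 CPM against 41.0, 39.7 and 49.8 CPM (0.88 ± 0.20, edgeR adjusted p = 0.00062), but the difference was 0.40 without vehicle 1, and the call was lost without either vehicle library. Taf4b, a germ cell subunit of the general transcription machinery, fell (-0.52 ± 0.17, adjusted p = 0.040). Of 20 tested chromatin and methylation genes, Uhrf1, which brings DNA methylation to new strands, differed by -0.70 ± 0.15 and Ezh2, the methylase of Polycomb, by -0.66 ± 0.14. Both were past the threshold, but they are known to be made most in dividing cells and so are also given as a description. DESeq2 called 0 genes of this list, and 3 were higher and 3 lower at an unadjusted p under 0.05.

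**Figure D3:**
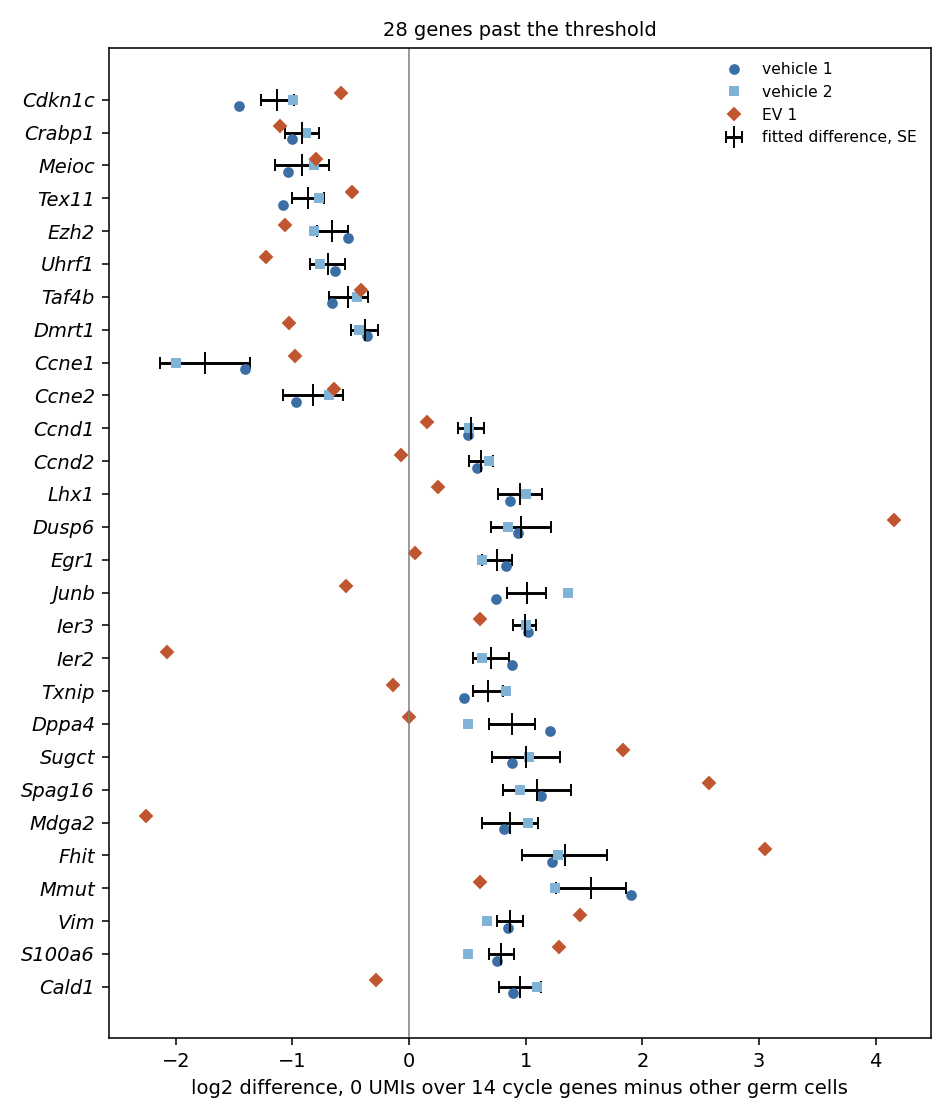
Log2 difference between germ cells with 0 UMIs over 14 cycle genes and the other germ cells (x axis) for 28 genes past the threshold (y axis), as the value of each library (points) and the fitted value with its SE (bars). Vehicle 1 and vehicle 2 lie on the same side of 0 for each gene, while EV 1, with 1 UMI worth 14.8 CPM, lies on the other side or near 0 for several, such as Ier2 and Mdga2.

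By size, 15 genes were taken from each end of those past the threshold with at least 200 UMIs and, after a small count was added to each value, the same direction in 3 libraries. At the upper end they were Mmut, Spink10, Fhit, Ahnak2, Zfp839, Hist1h2bc, Uggt2, Eml6, Rab13, Magi2, Spag16, F8, Tmem116, Lgals3 and Sugct, with log2 differences from 1.00 to 1.56. All were sparse, and 11 of them were more abundant in fibroblast-like cells than in the other germ cells in all 3 libraries. Mmut, a mitochondrial mutase of propionate breakdown, had 44.0, 33.4 and 14.8 CPM against 11.97, 14.4 and 12.4 CPM (1.56 ± 0.30, edgeR adjusted p = 2.4e-05). Fibroblast-like cells had 34.1, 39.0 and 27.7 CPM of Mmut. Fhit, a large gene at a fragile site, had 23.0, 26.0 and 44.3 CPM against 10.2, 11.1 and 4.15 CPM (adjusted p = 0.0089).

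Spag16, a gene of the sperm flagellum, had 38.3, 33.4 and 29.5 CPM in zero-count germ cells against 17.9, 17.7 and 4.15 CPM (1.10 ± 0.29, edgeR adjusted p = 0.0066), with 5.36, 5.32 and 6.69 CPM in fibroblast-like cells. Sugct, a mitochondrial CoA transferase, had 30.6, 38.9 and 29.5 CPM against 17.1, 19.5 and 8.29 CPM (1.00 ± 0.29, adjusted p = 0.018), with 25.3, 26.6 and 24.6 CPM in fibroblast-like cells. Both missed the threshold on cells thinned to 1000 UMIs. Like Lhx1, both were given beforehand as markers of these cells, so that their tests are no independent evidence about them. Hist1h2bc, an H2B histone gene whose reads can be shared with near-identical copies, was the one core histone that rose (1.13 ± 0.25, adjusted p = 0.00031), and 8 of the 14 tested histones fell (9 at an unadjusted p under 0.05, 2 by DESeq2). The rule set the histone genes Hist1h2ap and Hist1h1b to 0, so that the count of lower histones is a description. Zfp839 had 0 UMIs in the zero-count germ cells of EV 1 and 1 UMI in the others there, so its direction in that library rests on the count added before the logarithm, and in CPM it was lower there. Magi2, a scaffold protein of cell contacts, had 63.1 and 89.0 CPM against 42.8 and 51.2 CPM in the vehicle libraries, and 576 CPM in EV 1, where 17 of its 39 UMIs came from 1 cell. Its log2 difference was 1.10 with that library and 0.73 without it, so that its place among these 15 rests on EV 1. The lower end consisted of Cdkn3, Nusap1, Flrt1, Neil3, Cenpl, Depdc1a, Hist1h3c, Fam83d, Kif2c, Pbk, Fbxo5, Kif11, Hist1h2bm, Cdc25c and Ckap2l, with log2 differences from -3.94 to -2.68. Most of these were sparse in the zero-count germ cells, while Kif11 and Nusap1 had 4958 and 4013 UMIs over both classes. In the zero-count germ cells of each library, 9 of the 15 had at most 3 UMIs, so that the order among them rests on few counts. The fitted differences of Cdkn3, Flrt1, Cenpl, Depdc1a and Hist1h3c went to between -9.31 and -8.24 without the 1 library that held their UMIs, where the size depends on the count added to 0. Most are known cell cycle genes that move with the genes of the rule, and CHR letters were in 83.3% of their 12 promoter windows (12 of 15 genes matched), against 31.7% of 325 windows of the 341 lower genes (271 matched) and 12.1% of those of all genes tested.

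Genes of protein synthesis and of the mitochondrial genome were measured as a check on RNA content. Ribosomal protein transcripts, with 44 genes tested, summed to 110.9%, 113.6% and 103.3% of the level in the other germ cells, and 1 gene passed, Rps4x (0.64 ± 0.10, edgeR adjusted p = 3.2e-08), an X-linked gene with many processed copies. At an unadjusted p under 0.05 there were 9, and DESeq2 called 1. Transcripts of the mitochondrial genome stood at 112.3%, 111.6% and 107.6%, with 1 of 13 genes past the threshold (mt-Nd5, 0.40 ± 0.11, adjusted p = 0.0064) and 0 by DESeq2. Of 20 genes of ribosome biogenesis, 0 passed edgeR or DESeq2 and 1 was lower at an unadjusted p under 0.05, with a median of -0.07. The sums of this list were 95.8%, 94.7% and 73.8% of the other germ cells, and the exact Poisson intervals of the 2 classes were apart in vehicle 2 (5349 to 5748 CPM against 5814 to 5901 CPM) and in EV 1 (3468 to 4427 CPM against 5032 to 5619 CPM). Of its genes, 10 were lower and 0 higher in all 3 libraries. Of 20 tested stress genes 3 rose by edgeR, namely Txnip, Mt1 and Ddit4 (5 at an unadjusted p under 0.05, 1 by DESeq2). Txnip, an inhibitor of thioredoxin, had 172, 219 and 73.8 CPM against 125, 124 and 87.1 CPM (log2 difference 0.68, adjusted p = 9.6e-06, but 0.40 and not called without vehicle 2), and Mt1, a metallothionein gene, had 966, 782 and 3454 CPM against 705, 599 and 2442 CPM (adjusted p = 0.0013). Of 19 tested genes of the list of long neuronal and adhesion genes, 4 rose (Magi2, Spag16, Sugct and Mdga2) and Ptprd fell by edgeR, with a median of 0.46. At an unadjusted p under 0.05 there were 5 higher and 4 lower, and DESeq2 called 0. The list summed to 91.4%, 100.9% and 182.6% of the other germ cells. Spag16, Sugct and Mdga2 were put on this list from earlier results of these data, and Spag16 and Sugct are not adhesion genes, so that the count is no independent evidence about such genes. The median gene span of all higher genes was 20.8 kb against 26.5 kb of all genes tested.

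Of the 63 genes past the threshold in the lists and ranks above, all kept their sign under every alternative that gave a value. The call was kept by 15 without vehicle 1, by 15 without vehicle 2 and by 60 without EV 1. The 12 kept in each of the 3 cases were Ier3, Cdkn1c, Vim, S100a6, Magi2, Nusap1, Neil3, Kif2c, Pbk, Fbxo5, Kif11 and Ckap2l. Of these, Nusap1, Kif2c, Kif11 and Ckap2l are on the list of mitosis genes, which move with the rule, so that their calls are a description. Neil3, Pbk and Fbxo5 were among the 15 lowest genes, most of which do so as well. Junb, Depdc1a and Fam83d were lost without vehicle 2, and Tex11, Crabp1 and Hist1h3c without vehicle 1. The other 45, among them Lhx1, Egr1, Ccnd2, Meioc, Dppa4, Mmut, Spag16 and Sugct, passed only with both vehicle libraries in the fit. For 13 genes the log2 difference moved by over 1.5 times without 1 library, and their values are given with the genes, apart from Mdga2 (from 0.86 to 0.54 without vehicle 2) and Ptprd (from -0.68 to -0.38 without vehicle 1). On thinned cells 31 of 57 kept it, among them Lhx1, Egr1, Ccnd2, Ier3, Cdkn1c, Tex11, Crabp1 and Meioc. With fibroblast-rich cells left out 54 of 63 kept it, and those lost were Ahnak2, Rab13, Lgals3, Ccnd1, Mt1, S100a6, Lgals1, Bgn and mt-Nd5.

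The study asked what testis vesicles do to cultured spermatogonia, and within zero-count germ cells EV 1 can be set beside the vehicle libraries as values only. The 43 cells of EV 1 held 67757 UMIs, so that 1 UMI is worth 14.8 CPM. Stem cell transcripts had lower values in EV 1. The 24 genes of the list summed to 3603 CPM (exact Poisson interval 3442 to 3769) in vehicle 1, 3818 CPM (3654 to 3986) in vehicle 2 and 1933 CPM (1616 to 2294) in EV 1, which is 52.1% of the vehicle mean. Without Glis3 the sums were 1829, 1884 and 1092 CPM, or 58.8%. In the other germ cells the same list stood at 76.8% of the vehicle mean in EV 1. Signs of RNA quality moved with the arm as well. A list of 6 long nuclear RNAs, Malat1 among them, summed to 15987, 16783 and 47818 CPM in the zero-count germ cells of vehicle 1, vehicle 2 and EV 1, against 15922, 17337 and 24326 CPM in the other germ cells. The stress list summed to 2485, 2371 and 5608 CPM, against 2132, 2029 and 4453 CPM. Both lists were higher in EV 1 than in the vehicle libraries in either class, and their part in the lower stem cell values was not tested.

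Single genes of the list differed in size. Gfra1 had 4 UMIs in EV 1, and its ratio to the pooled vehicle libraries was 0.252 (exact conditional interval 0.0681 to 0.653). Cd9, a tetraspanin on stem cells that is also a vesicle marker, had a ratio of 0.392 (0.194 to 0.708), Glis3 of 0.454 (0.342 to 0.590) and Zbtb16 of 0.275 (0.0562 to 0.817). For Ret (0.637, 0.203 to 1.53), Etv5 (0.722, 0.285 to 1.52) and Lhx1 (0.356, 0.0425 to 1.33) the interval included 1. Over the 16 genes of the list that reached 20 UMIs, the median log2 ratio was -0.83, against 0.03 for 7722 genes, and it was -0.22 when 2 UMIs in place of 0.5 were added to each sum.

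**Figure D4:**
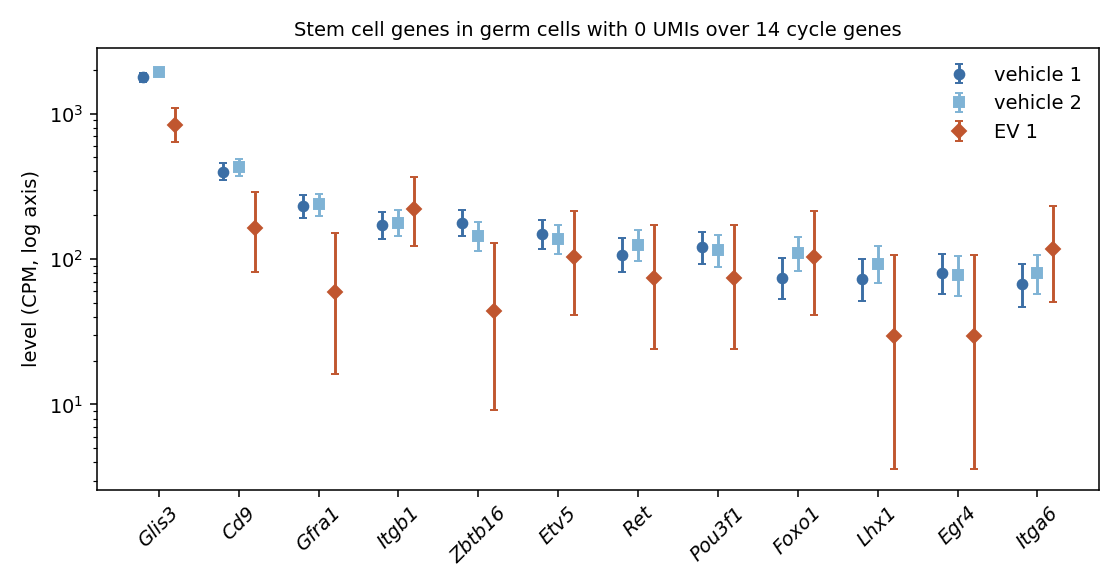
Level (y axis, CPM on a log axis) of 12 stem cell genes (x axis) in the germ cells with 0 UMIs over 14 cycle genes of vehicle 1, vehicle 2 and EV 1, with exact 95% Poisson intervals of each sum. The EV 1 intervals of Glis3, Cd9, Gfra1 and Zbtb16 end below both vehicle points, and those of the other genes do not.

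Over all genes with at least 100 UMIs in zero-count germ cells, 317 of 2267 (14%) lay 2-fold or further from the mean of the vehicle libraries, with a gap to the nearer of them that was wider than their own spacing. Of these, 70 were higher in EV 1 (3.09%) and 247 lower (10.9%). Only for 214 of the 317 did the exact conditional interval of the ratio to the pooled vehicle libraries exclude 1. Of the 9 stem cell genes with that depth, 4 were past this size and lower. The filter counted EV 1 too, and 23 of the 70 higher genes and 5 of the 247 lower ones had under 100 UMIs in the vehicle libraries, so that they passed it only through EV 1. With the filter set on the vehicle libraries alone, an alternative chosen after the data were seen, 289 of 2122 genes were past this size, 47 higher and 242 lower. The 6 highest log2 ratios were those of Hmga2, Magi2, Ero1l, Peak1, Ankrd37 and Mt1, of which Hmga2, Magi2, Peak1 and Ankrd37 are among the 23. Hmga2, a chromatin protein of proliferating fetal cells and a known let-7 target, had 76.5, 104 and 797 CPM (log2 ratio 3.14), with 17 of its 54 EV 1 UMIs in 1 cell, and fibroblast-like cells had 2118, 2206 and 2195 CPM of it. Ero1l, an oxidase of the endoplasmic reticulum, had 189, 156 and 945 CPM, and 1034, 1134 and 2465 CPM in fibroblast-like cells. Mt1 had a ratio of 3.96 (3.41 to 4.57) and had 2628, 2496 and 9051 CPM in fibroblast-like cells. Fibroblast RNA moved with these genes, since the fibroblast list stood at 6376 CPM in EV 1 against 2726 and 2158 CPM. Of the EV 1 sum, much came from 1 cell, and with fibroblast-rich cells left out the sums were 3683 CPM against 2178 and 1732 CPM. The log2 ratio of Hmga2 was then 3.59, that of Magi2 3.29, that of Ero1l 2.43 and that of Mt1 1.73, against 3.14, 2.92, 2.46 and 1.98 with all cells.

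The lowest, with 1 provisional gene model passed over, were those of Rsl24d1, Flt1, Usp9y, Rasl11a, Zfp518a and Mpped2. Rsl24d1, Flt1 and Usp9y had 0 UMIs in EV 1, a count that allows up to 3 UMIs, or 44.3 CPM (the exact two-sided Poisson interval ends at 54.4 CPM), and 124, 97.6 and 84.2 CPM in vehicle 1. Rasl11a, a Ras-like gene, had 321, 365 and 29.5 CPM, with a ratio of 0.0859 (0.0104 to 0.313), and its level in the other germ cells of EV 1 was 104 CPM against 270 and 251 CPM in the vehicle libraries. Zfp518a had 341, 378 and 44.3 CPM. Sycp3 went the other way, with 191, 208 and 502 CPM and a ratio of 2.51 (1.70 to 3.62). Malat1, a long nuclear RNA that is often high in damaged cells, made up a median of 1.34%, 1.40% and 2.39% of the UMIs of zero-count germ cells in vehicle 1, vehicle 2 and EV 1, and at most 10.5%, 15.8% and 26.7% in 1 cell. The other germ cells had medians of 1.36%, 1.497% and 2.15%, so that the higher median in EV 1 was seen in both classes.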

How the data were processed

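Cell clumps of primary spermatogonial cultures were digested and profiled by 10x Genomics single-cell RNA sequencing. The authors aligned reads to mm10 with GENCODE vM23 and counted UMIs with Cell Ranger 7.0.1, and the deposited values are raw UMI counts per gene and called cell barcode over 32285 genes. Whether introns were counted is not given in the sources used here. EV 2, with 6794 barcodes, entered only the comparison of barcodes. At most 22 barcodes were shared by any pair of libraries. The cells, lists and tests were chosen with earlier results of these data known.

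The rule was applied to 8278, 8844 and 3948 barcodes of vehicle 1, vehicle 2 and EV 1 that passed the filters, without removing doublets. UMIs were summed per library and class into 6 sums. Genes with at least 100 UMIs over these sums were tested with edgeR 4.0.16 (TMM, quasi-likelihood test, two-sided, library as a block, Benjamini-Hochberg adjustment at 0.05, R 4.3.3). Both classes of a library come from 1 sample, and the correlations of their deviations were 0.124, 0.122 and 0.137. The 24 genes of the rule were left out of all counts. On simulated data for this comparison, over 11940 genes, 28.8% of 1.5-fold, 65.7% of 2-fold and 91.0% of 4-fold changes were recovered, with 0.8% false calls. The changed genes were drawn above a higher minimum of UMIs than the test used, and all genes had a common dispersion. These shares therefore do not describe the sparsest genes tested. DESeq2 1.42.0 was an alternative.

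For EV 1 against vehicle, log2 ratios of CPM with 0.5 UMI added, exact Poisson and exact conditional intervals were given, with no test. Shares carry Wilson intervals (scipy 1.17.1). Doublets were scored with Scrublet (scanpy 1.11.5) for an alternative. Genes were named by list, or as the 15 highest and 15 lowest differences (6 each for EV 1), with 6 provisional gene models passed over at the upper end of the former and 1 at the lower end of the latter. Coordinates follow GENCODE M21 (GRCm38), and promoters come from RefSeq.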

Additional observations from a re-analysis of the deposited data

Results flagged for a closer look

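For 10 genes past the threshold, the CPM of zero-count germ cells differed from that of the other germ cells in one direction in both vehicle libraries and in the opposite one in EV 1. This difference between vehicle and EV 1 was not tested, since the EV arm has 1 library with counts. Ier2 had 14.8 CPM (1 UMI) in zero-count germ cells of EV 1 against 91.2 CPM in its other germ cells, and Junb had 73.8 against 116 CPM, while both were higher than in the other germ cells in the vehicle libraries. Egr1 (59.0 against 62.2 CPM), Ccnd2 (458 against 485 CPM), Dppa4 (44.3 against 49.8 CPM), Txnip (73.8 against 87.1 CPM) and Cald1 (59.0 against 78.8 CPM) were lower by less. For Egr1, Dppa4 and Txnip the gap is smaller than the 14.8 CPM of 1 UMI. Those of Ccnd2, Cald1 and Junb are a few UMIs at most, so that no direction can be read in EV 1 for any of these genes. Mdga2 and Zfp839 had 0 CPM in the zero-count germ cells of EV 1 and 33.2 and 4.15 CPM in the others. A count of 0 UMIs there allows up to 44.3 CPM, which is above both values, so that no direction can be read for either gene. For Zfp839 the counts are 0 UMIs against 1 UMI, and its sign in EV 1 turned when a small count was added before the logarithm. Ptprd went the other way, with 118 CPM against 49.8 CPM in EV 1, and 34.4 and 37.1 CPM against 68.9 and 66.0 CPM in the vehicle libraries.

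For the 3 summed lists checked for this, the percentages lay on opposite sides of 100 in the arms, also without a test. Outside that check, the 4 given markers, Dazl of the rule among them, stood at 125.6%, 113.4% and 77.7% in vehicle 1, vehicle 2 and EV 1. Macrophage genes, with 6, 10 and 0 UMIs in the zero-count germ cells, stood at 147.6%, 228.1% and 0%. The stem cell list stood at 119.8% and 119.6% of the other germ cells in vehicle 1 and vehicle 2 and at 81.2% in EV 1. The G1 list stood at 115.4%, 119.8% and 86.7%, and the list of CDK inhibitors and cycle exit at 76.3%, 75.7% and 104.5%. In EV 1 the exact Poisson intervals of the 2 classes overlapped for all 3 lists, at 1616 to 2294 CPM against 2189 to 2583 CPM for stem cell genes, 1015 to 1568 CPM against 1315 to 1625 CPM for the G1 list and 1281 to 1892 CPM against 1346 to 1659 CPM for the inhibitors.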

How the results depend on the processing

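The 537 calls between zero-count and other germ cells became 88 with DESeq2, 291 without library as a block, 296 on cells thinned to 1000 UMIs, 89 with a minimum of 2000 UMIs, 160 with a germ sum of at least 4 and 1398 with 1 cycle UMI allowed (chosen after the data were seen, as was leaving out fibroblast-rich cells). Leaving out 1 library gave 81 to 652. In the other 6 settings the number stayed within 1.5 times, and no shared call changed sign. The mean vehicle share of 6.76% became 13.8% on thinned cells, 1.66% with a minimum of 2000 UMIs, 4.64% with a germ sum of at least 4 and 14.8% with 1 cycle UMI allowed, and the EV 1 share of 22.5% became 16.5% and 36.1% in the last 2. The cycle genes outside the rule, at a mean of 45.3% of the other germ cells, were at 54.8% on thinned cells. The median log2 ratio of stem cell genes in EV 1, -0.83, was -0.22 with 2 UMIs added, -0.69 on thinned cells, -0.77 without fibroblast-rich cells, -0.17 with a minimum of 2000 UMIs (9 genes), -1.09 with a germ sum of at least 4, -0.67 without doublets and -0.55 without a filter. The 317 genes past 2-fold in EV 1 became 195 with 2 UMIs added and 827 at a minimum of 50 UMIs. Where no construction explains a change, the cause was not tested. No paired analysis was possible because vehicle and EV share only replicate 1 among libraries with counts. The 67757 UMIs of EV 1 limit every value of its zero-count germ cells.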
